A study of Mus musculus with 38 samples.

Results

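H3K4me1 domains of cultured epidermal stem cells (EpdSCs) carrying SOX9 without its DNA-binding HMG domain (ΔHMG-SOX9, induced with doxycycline, DOX) were compared with those of cells without DOX. Members were chosen by position alone: a domain of the ΔHMG list with no overlap of 1 bp in the no DOX list was called gained, and a domain of the no DOX list with no such overlap in the ΔHMG list was called lost. Of 116326 ΔHMG domains, 22462 were gained, a share of 19.3% (95% interval 19.1% to 19.5%). Of 110589 no DOX domains, 17274 were lost, 15.6% (15.4% to 15.8%). The 2 lists are part of 4 culture lists with 466295 domains in all.

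The cells were keratinocytes of mouse back skin, labelled male, that carried *Krt14-rtTA*, which drives the DOX-dependent activator in basal epithelial cells. They had been transduced with lentivirus carrying MYC-tagged SOX9 under a TRE promoter and selected with puromycin. The no DOX list comes from cells with the wild-type (WT) construct and the other from cells with the ΔHMG construct plus DOX, so that DOX, the construct with its transduced population and the SOX9 variant cannot be told apart. A list of ΔHMG cells without DOX was not analysed here. Chromatin was profiled by MINT-ChIP, a ChIP in which chromatin is tagged with a barcode per sample and then pooled for the antibody step, and the 2 culture libraries (a high and a low micrococcal nuclease digest) each held 1 barcode per condition. Each list merges both digests. There is no replicate of a condition, no spread between cultures and no test of any difference below, and the intervals of shares (exact, Clopper-Pearson) cover counting error only. The number of reads behind a list is unknown.

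SOX9 is a transcription factor of hair follicle stem cells (HFSCs) that binds DNA through its HMG box and acts through a C-terminal transactivation domain. The variant without the HMG box keeps that domain and was used to ask what SOX9 does to chromatin when it cannot bind DNA itself. Mono-methylation of histone H3 at lysine 4, set largely by the MLL3/4 methyltransferases, marks primed and active enhancers, and H3K27ac marks the active ones. Fold below means a domain's enrichment over local background as deposited, a linear ratio within its own list.

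3 domains are shown as sequence because they carry a high fold or lie at a gene named by the study. The first is the highest-fold lost domain. Next is the lost domain of highest fold at *Trp63*, which encodes the master regulator of basal epidermis p63. Last is the gained domain of highest fold at *Runx1*, a transcription factor of HFSCs. Domains of up to 300 bases are given whole and the *Trp63* domain by its central 300 bases, from GRCm38, plus strand, 5′ to 3′, with matches to the AP1 motif TGANTCA (either strand) in capitals.
Highest-fold lost domain, chr7:35686892-35687130: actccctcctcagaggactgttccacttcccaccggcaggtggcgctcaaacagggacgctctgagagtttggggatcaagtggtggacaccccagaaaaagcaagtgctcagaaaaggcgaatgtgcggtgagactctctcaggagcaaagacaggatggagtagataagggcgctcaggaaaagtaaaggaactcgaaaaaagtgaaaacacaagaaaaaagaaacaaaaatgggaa
*Trp63* lost domain, chr16:25767771-25768070: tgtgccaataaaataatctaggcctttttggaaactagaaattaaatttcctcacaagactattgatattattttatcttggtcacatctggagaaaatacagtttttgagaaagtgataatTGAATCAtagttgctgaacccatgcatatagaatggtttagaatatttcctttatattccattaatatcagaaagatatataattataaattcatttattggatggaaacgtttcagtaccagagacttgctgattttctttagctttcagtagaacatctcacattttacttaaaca
*Runx1* gained domain, chr16:92851833-92852079: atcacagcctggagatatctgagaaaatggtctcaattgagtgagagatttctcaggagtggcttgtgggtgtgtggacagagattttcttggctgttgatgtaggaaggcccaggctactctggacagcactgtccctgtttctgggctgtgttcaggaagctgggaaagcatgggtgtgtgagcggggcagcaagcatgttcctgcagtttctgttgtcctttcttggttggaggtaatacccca
The lost domain on chromosome 7 had a fold of 9.20 over 239 bp, and 23.0% of its bases are repeat-masked in the reference. At *Trp63* the lost domain reached a fold of 4.80 over 1114 bp, with 28.7% GC in the stretch shown and 1 AP1 match. The *Runx1* domain had a fold of 4.07 over 247 bp, no masked base and no match. Its nearest start site was that of *Gm49723*, at 9798 bp.

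Gained and lost domains were short and weak against those present in both lists. Gained domains had a median width of 406 bp and a median fold of 3.26, whereas the 93864 ΔHMG domains with a no DOX counterpart had medians of 964 bp and 3.75. Lost domains had medians of 394 bp and 3.11, against 984 bp and 3.68 for the 93315 no DOX domains that were kept. Folds of 5 or more were found in 1019 gained domains (4.54%), 472 lost domains (2.73%), 15.8% of shared ΔHMG domains and 14.5% of shared no DOX domains. In bases, gained domains made up 12.3 Mb of the 120 Mb covered with ΔHMG-SOX9 (10.2%) and lost domains 9.38 Mb of 119.7 Mb without DOX (7.84%). The total covered thus differed by 0.449 Mb.

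The share without a counterpart depended on how strong a domain was. With each list cut into 10 equal parts by score, in the lowest part of the ΔHMG list, 54.2% of domains were gained, and in the highest part 1.61%. In the no DOX list the lost share went from 48.6% in the lowest part to 0.886% in the highest. Width gave the same order: up to 300 bp, 54.3% of ΔHMG domains were gained and 48.8% of no DOX domains were lost, and over 2000 bp the shares were 0.975% and 0.822%. In each part by score and each class of width the gained share was the higher of the pair, the intervals overlapping only over 2000 bp.

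**Figure D1:**
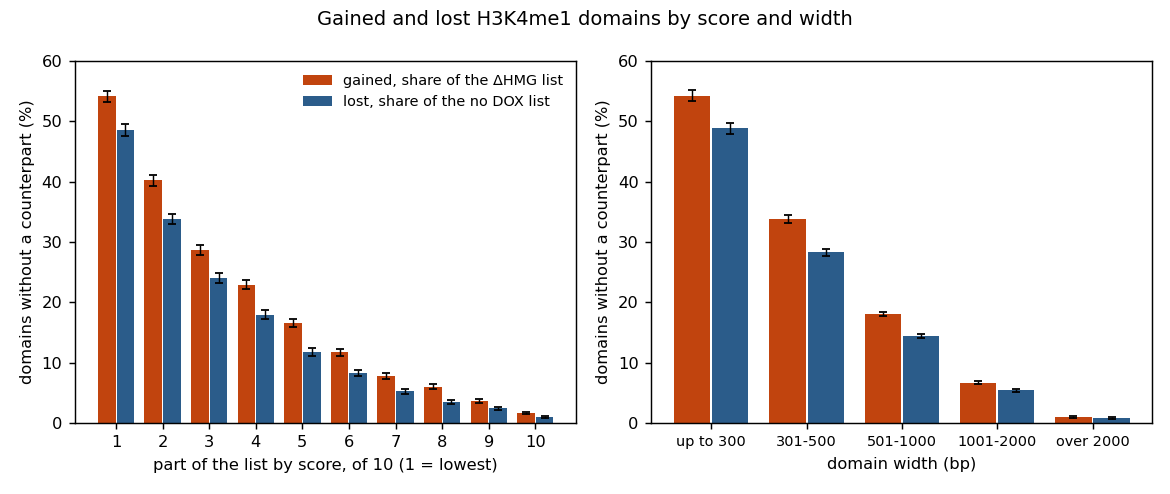
Percentage of domains without a counterpart (y axis) by 10 equal parts of the list in order of score (left) and by width in bp (right), for the ΔHMG list (gained) and the no DOX list (lost); error bars are exact 95% intervals of counting. The share falls from 54.2% (gained) and 48.6% (lost) in the lowest part to 1.61% and 0.886% in the highest.

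Lost domains numbered 0.769 for each gained domain. That excess of gains turned when the ΔHMG list was cut to its 110589 domains of highest score, the length of the no DOX list, which left out its weakest domains only and gave 19082 gained and 19448 lost domains, a ratio of 1.02. Among domains above the median score of their own list the ratio was 0.629, and at q of 0.01 or less 0.715. For these ratios the counterpart was sought in the whole other list, whereas at equal length it was sought in the cut list. The lists shared 88.7 Mb, a Jaccard index over bases of 0.587. Of the no DOX domains, 2017 lay over 2 or 3 ΔHMG domains, and 1493 ΔHMG domains lay over 2 or 3 no DOX domains. In the 88385 pairs that matched singly, the log2 ratio of fold (ΔHMG over no DOX) had a median of 0.02 and ran from -0.30 at the 10th to 0.36 at the 90th percentile, and the log2 ratio of width ran from -0.85 to 0.81 around a median of -0.01.

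An overlap of 50% of the shorter interval in place of 1 bp gave 24656 gained and 19420 lost domains. There were 123 gained domains within 100 bp of a no DOX domain and 126 lost domains within 100 bp of a ΔHMG domain, and 497 ΔHMG domains counted as shared through 100 bp or less. The gained domains just outside the limit had a median width of 382 bp and a median fold of 2.95, and those just inside 411 bp and 2.94. The median gap to the nearest domain of the other list was 4958 bp for gained and 3689 bp for lost domains, and 29.9% of gained against 21.1% of lost domains lay over 10 kb from one.

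Changed domains lay away from start sites, gained domains more so. Over 2500 bp from the nearest annotated start site were 84.7% of gained domains (84.2% to 85.2%), 80.5% of lost domains (79.9% to 81.1%) and 74.0% of shared ΔHMG domains (73.7% to 74.3%). A start site lay inside 1.98% of gained, 3.22% of lost and 7.44% of shared ΔHMG domains. By midpoint, 55.6% of gained and 51.8% of lost domains were intronic, 38.2% and 42.0% intergenic, and 6.21% and 6.26% exonic. Changed domains are narrower than shared domains, which touch a start site more easily, and the part of width in these shares was not tested.

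By chromosome, the gained share ran from 16.9% on chromosome 11 to 24.0% on X among chromosomes other than Y, and the lost share from 13.1% on chromosome 11 to 25.1% on X (Y held 11 ΔHMG and 10 no DOX domains). X was the chromosome, Y aside, with most losses per gain, 622 lost to 588 gained, a ratio of 1.06. Chromosome 13 came next with 968 lost and 974 gained, and chromosome 19 was at the other end with 468 lost and 717 gained (0.653). Domains on X were also the most sparse, 14.5 per Mb without DOX against 29.2 to 61.4 on the autosomes, and the shortest, with a median width of 727 bp. Their part in the higher shares on X was not tested.

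**Figure D2:**
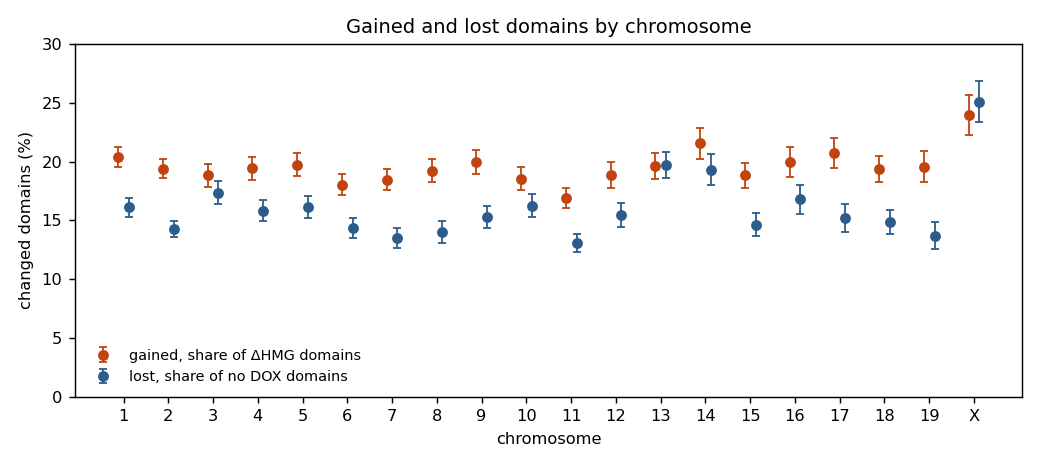
Changed domains (y axis, percent) on chromosomes 1 to 19 and X (x axis) as a share of each list, with exact 95% intervals of counting. Gained shares lie above lost shares on each autosome except 13, where they meet at 19.6% and 19.7%; X has 24.0% gained and 25.1% lost.

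Gains and losses were also uneven along chromosomes. Of 2485 stretches of 1 Mb with a domain, 1519 held more gained than lost domains and 716 more lost than gained. The most lopsided gain was on chromosome 2 from 29 Mb, with 35 gained and 8 lost domains, a stretch that holds *Rapgef1*, *Ttf1* and *Sptan1* (spectrin). Chromosome 6 from 71 Mb, with *Kdm3a*, a histone H3K9 demethylase, had 33 gained and 8 lost, and chromosome 18 from 23 Mb, with *Mapre2* and *Dtna*, had 26 gained and 2 lost. That last stretch held 42 domains without DOX, 67 with ΔHMG-SOX9, 62 with WT SOX9 and 65 with SOX9 lacking the transactivation domain (ΔTA). Losses were most lopsided on chromosome 3 from 109 Mb, with *Vav3*, a guanine nucleotide exchange factor, where 23 domains were lost and 4 gained. On chromosome 12 from 54 Mb, with *Egln3*, a HIF prolyl hydroxylase, and *Cfl2* (cofilin 2), 23 were lost and 6 gained. A stretch on chromosome 3 from 21 Mb without a protein-coding gene had 23 lost and 7 gained.

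Lists of called regions from skin allowed a readout that the overlap rule did not use. EpdSCs had been sorted from back skin of *Krt14-rtTA;TRE-Sox9* mice without induction (D0) and after 2 weeks of DOX (W2). Lost domains were found in skin more often than gained domains. At D0, 50.3% of lost domains (49.5% to 51%) and 34.9% of gained domains (34.3% to 35.6%) overlapped a skin H3K4me1 domain, against 68.6% of shared no DOX and 68.8% of shared ΔHMG domains. At W2 the shares were 42.9% and 29.3%. H3K27ac peaks of skin were present at 7.31% of lost and 3.22% of gained domains at D0, and at 8.17% and 3.41% at W2, against 17.0% and 16.2% of shared no DOX and shared ΔHMG domains at D0. Among domains of 300 to 600 bp, the D0 H3K4me1 shares were 48.2% lost and 34.5% gained, and in 5 bands of GC content of the central 300 bases the difference stayed between 14.9 and 16.2 percentage points. These bands were added after the data had been seen.

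**Figure D3:**
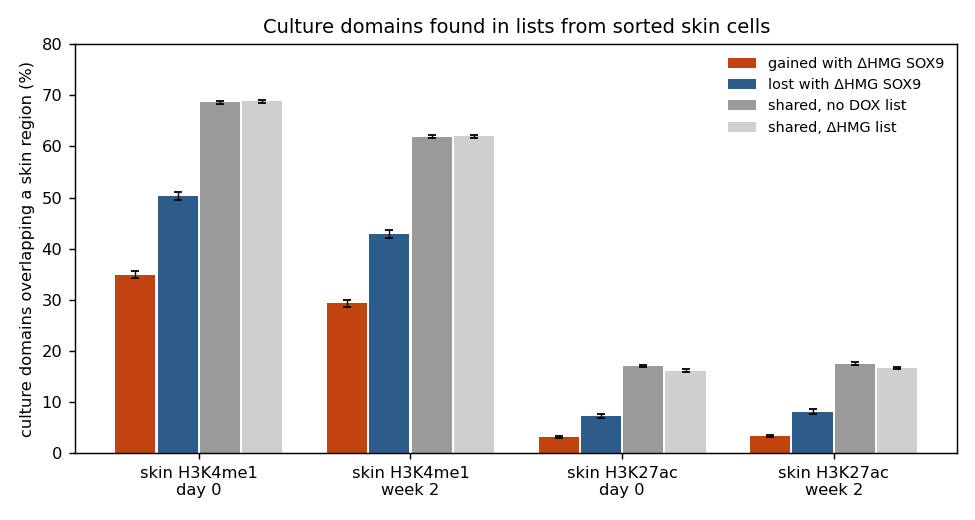
Percentage of culture domains (y axis) that overlap an H3K4me1 domain or H3K27ac peak of sorted skin cells at D0 or W2 (x axis), for gained, lost and shared domains, with exact 95% intervals of counting. Lost domains (50.3% for H3K4me1 at D0) lie between gained (34.9%) and shared domains (68.6% and 68.8%) in all 4 skin lists.

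Sequence at the centre of the domains (300 bases, GRCm38) was much alike in base composition, with a median GC content of 47.3% in gained, 46.7% in lost and 47.7% in shared domains. CpG dinucleotides averaged 3.41 in gained, 3.88 in lost and 4.39 in shared ΔHMG domains, and 21.3% of bases were repeat-masked in gained and in lost domains against 19.1% in shared ΔHMG domains. A SOX core ACAANG (either strand) was present in 49.2% of gained (48.5% to 49.8%) and 49.5% of lost domains (48.8% to 50.3%), and in 48.1% of all domains of either list. The AP1 motif TGANTCA, whose factors respond to stress and wounding in epidermis, was present in 18.9% of gained (18.4% to 19.4%) and 15.2% of lost domains (14.6% to 15.7%), against 18.6% of all ΔHMG and 17.6% of all no DOX domains. The lost share was the lower in each of the 5 bands of GC content, with lost minus gained between -4.61 and -1.30 percentage points, and at -4.78 among domains of 300 to 600 bp.

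Other motifs differed less. TGTGGT (RUNX) was in 23.0% of gained and 21.2% of lost domains, and in 22.4% of all ΔHMG and 22.1% of all no DOX domains. GGAATG (TEAD, the partners of YAP) was in 21% of gained and 19.1% of lost domains, with 20.4% and 19.7% over the lists. AGATAA, the motif of GATA factors, was in 15.4% and 15.3%, with 15.1% and 14.9% over the lists. GGGNGGG (KLF and SP factors) was in 24.1% of gained and 25.5% of lost domains, below the 26.7% and 27.1% of the lists. A match is a run of letters and not a bound site.

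At the level of genes, domains were counted within 50 kb of the start sites of 21938 protein-coding genes. At least 1 gained domain lay near 14926 genes (68%) and at least 1 lost domain near 12461 (56.8%). Of these genes, 4556 (20.8%) had 3 or more gained domains, 2445 (11.1%) had 3 or more lost domains and 672 had both. Losses were absent at 1424 of the genes with 3 or more gains, and gains at 436 of those with 3 or more losses. More gained than lost domains were counted at 9366 genes (42.7%) and more lost than gained at 5213 (23.8%). Genes with several start sites have longer windows, and neighbouring genes can share domains. A domain counted at a gene can lie nearest to the start site of another gene.

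*Frmd4a*, a scaffold protein of cell polarity, had the most gained domains. It had 23 domains without DOX and 36 with ΔHMG-SOX9, of which 15 were gained, and 2 were lost, while the windows held 26 domains with WT and 32 with ΔTA-SOX9. The gained domains had folds of 2.45 to 5.58 and widths of 273 to 1658 bp, and 7 of the 15 overlapped a skin domain at D0. The nearby *Fam107b* had 10 gained and no lost domain, with 23 domains without DOX and 34 with ΔHMG-SOX9. 2 of those gains were strong, chr2:3808673-3809204 at a fold of 7.20 and chr2:3688174-3688860 at 6.35, and none of the 10 overlapped a skin domain at D0. *Samd4*, an RNA-binding repressor of translation, had 11 gained and 2 lost domains.

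*Cdh2* encodes N-cadherin, the cadherin of mesenchymal and neural cells, and had 9 gained domains and 1 lost. Its windows held 11 domains without DOX, 19 with ΔHMG-SOX9, 19 with WT and 22 with ΔTA-SOX9. The strongest of the 9, chr18:16654963-16655300 in an intron, had a fold of 8.98 and was the fifth of all gained domains by fold. The 9 lay over 2500 bp from a start site and none overlapped skin H3K4me1 at D0.

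Other genes with many gains were *Dlgap4*, a synaptic scaffold (10 gained, 1 lost), *Rere*, a nuclear receptor co-regulator (10 and 2), *Abr*, a regulator of small GTPases (9 and 2), the de novo DNA methyltransferase *Dnmt3a* (9 and 3) and *Map4*, a microtubule-associated protein (9 and 3). *Tcf4*, a basic helix-loop-helix factor, came among the first 10 in both directions, with 9 gained and 8 lost domains and nearly equal totals of 32 and 33.

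*Pik3r1*, the p85 regulatory subunit of PI3-kinase, had many losses and few gains. It had 18 domains without DOX and 10 with ΔHMG-SOX9, with 9 lost and 1 gained, and 12 domains with WT and 11 with ΔTA-SOX9. The lost domains were of modest strength, with folds of 2.22 to 3.63 and widths of 237 to 1377 bp. All 9 overlapped skin H3K4me1 at D0, as did the gained domain. Above the median score *Pik3r1* had no changed domain left. *Foxp1*, a forkhead repressor, had the most lost domains, 14, but also 7 gained among a total of 79 without DOX and 71 with ΔHMG-SOX9. Those totals were the highest of the named genes, and their part in its count of losses was not tested. Near all protein-coding genes, 13.9% of no DOX domains were lost and 18.1% of ΔHMG domains gained. When only domains scoring above their list's median were counted, *Foxp1* had 2 more gained than lost.

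*Ltbp1*, which binds latent TGFβ in the matrix, had 11 lost and 4 gained domains, with totals of 25 and 18. Its strongest lost domain, chr17:74976189-74976572 at a fold of 5.85, directly adjoined a gained domain, chr17:74976573-74977345 at 3.13, so that a called domain lay in each list at this place without a shared base. *Zbtb7c*, a zinc finger factor, had 9 lost and 2 gained domains, *Filip1l* 9 and 3, *Plekha5* 9 and 4, the sphingomyelin synthase *Sgms1* 9 and 4, *Stox2* 9 and 6 and *Cald1*, the actin-binding caldesmon, 9 and 7. None of the 9 lost domains at *Plekha5* and 8 of 9 at *Sgms1* overlapped skin H3K4me1 at D0.

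**Figure D4:**
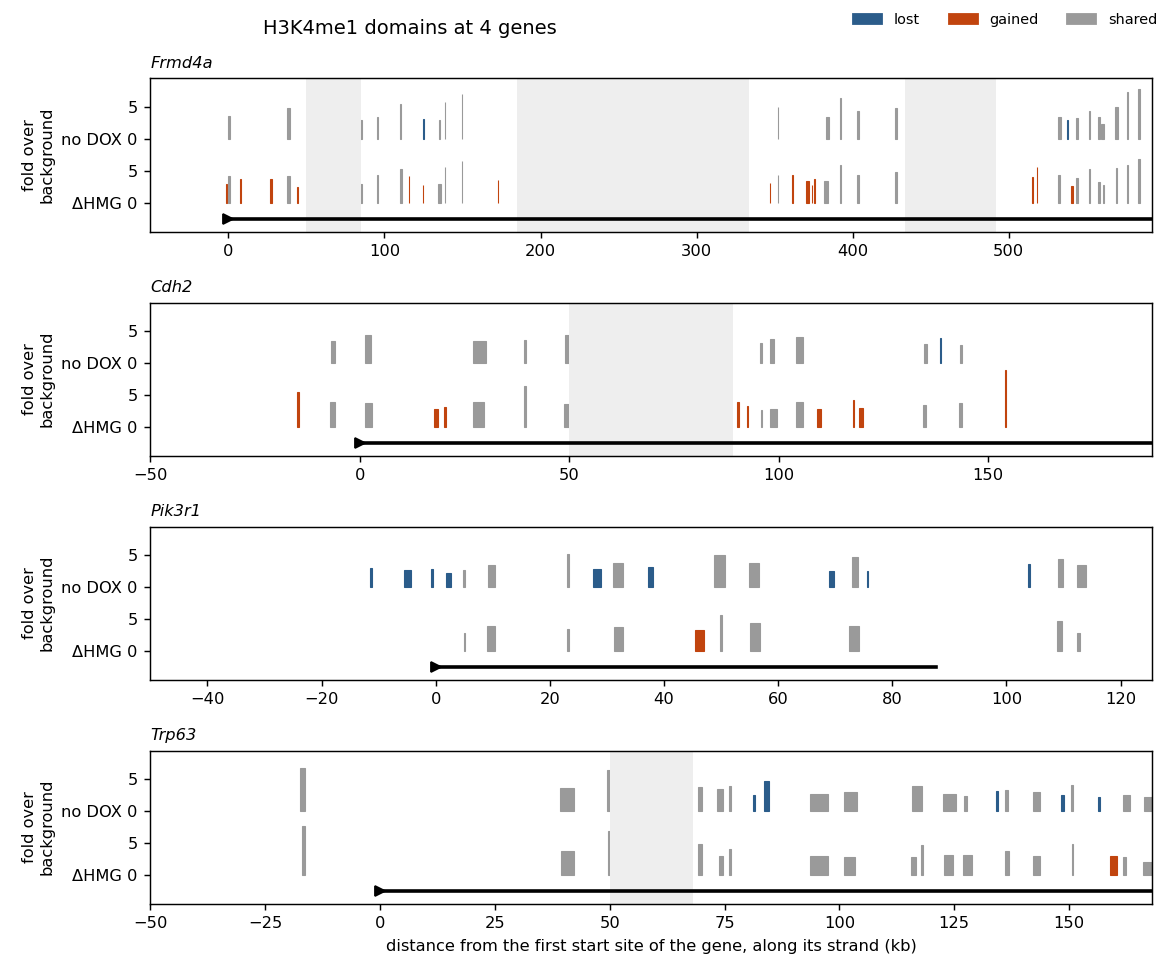
Domains of the no DOX list (upper row) and the ΔHMG list (lower row) at 4 genes, as bars whose height is the fold over background (linear, from 0) against distance in kb from the first start site along the gene's strand; the black line is the gene and light grey areas lie outside the 50 kb windows that were counted. Gained domains number 15 at *Frmd4a* and 9 at *Cdh2*, and lost domains 9 at *Pik3r1* and 5 at *Trp63*.

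Gene groups were read against all genes. Counts of members depend on how many domains lie near each gene, which was not allowed for. Within 50 kb of any protein-coding start site, 18.1% of ΔHMG domains were gained and 13.9% of no DOX domains were lost. Transcription factors of the epidermis lay below both values. Around 20 such genes, 32 of 280 ΔHMG domains (11.4%; 7.95% to 15.7%) were gained and 31 of 275 no DOX domains (11.3%; 7.79% to 15.6%) were lost, and the second interval holds the value of all genes. More lost than gained domains were counted at 8 of the 20 and more gained at 8, where all genes give 23.8% and 42.7%. *Trp63* had 5 lost domains and 1 gained, with totals of 21 and 18. *Hopx*, a homeodomain protein of stem and differentiating cells, had 4 gained and 1 lost, *Grhl3*, a grainyhead factor of barrier formation, 1 and 3, and *Klf4*, a driver of differentiation, none and 2.

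The 5 lost domains at *Trp63* were all intronic, with folds of 2.24 to 4.80, and all 5 overlapped skin H3K4me1 at D0. The gained domain at *Trp63* overlapped it as well. Skin H3K4me1 at D0 covered 62.5% of the sequence within 10 kb of the gene. The lost domains included chr16:25767365-25768478, shown above, which neither the WT nor the ΔTA list overlapped. At *Klf4*, 10 domains without DOX stood against 7, and the lost chr4:55521670-55523278 had a width of 1609 bp and a fold of 3.39. *Gata3*, a factor of epidermal and hair lineages, had 1 gained and 1 lost domain among 14 and 13.

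Genes of basal keratins and adhesion had 33 of 295 ΔHMG domains gained (11.2%; 7.83% to 15.4%), below the 18.1% of all genes, and 32 of 297 no DOX domains lost (10.8%; 7.49% to 14.9%), an interval that holds the 13.9% of all genes. *Lamb3*, a chain of laminin 332, had 4 gained domains and 1 lost, and *Dst*, a hemidesmosomal plakin, 7 and 4. *Krt15*, a basal keratin also used as an HFSC marker, had 1 gained and 4 lost, and *Itgb4*, the hemidesmosomal integrin, none and 2. Both lost domains counted at *Itgb4* lay nearest to start sites of other genes. *Krt5* had 4 gained and 2 lost domains among 15 and 16, nearest to *Krt6a*, *Krt6b* or *Krt71* rather than to *Krt5* itself. *Krt14* had 1 of each among 13 and 13.

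Suprabasal and barrier genes had the highest lost share of the 10 gene groups, 35 of 184 no DOX domains (19%; 13.6% to 25.4%), with 29 of 177 ΔHMG domains gained (16.4%). Intervals reached the values of all genes in both. 6 of the 20 had 3 or more losses (against 11.1% of all genes), and several of these share domains. More lost than gained domains were counted at 8 of the 20 (40%, against 23.8% of all genes) and more gained at 8 (40%, against 42.7%). *Sprr1b*, a small proline-rich protein of the cornified envelope, had 8 lost and 3 gained domains. The desmocollin *Dsc1* had 4 lost, loricrin (*Lor*) 3 and involucrin (*Ivl*) 2, with no gain at these 3 genes, while totals went from 16 to 11 at *Dsc1*, from 10 to 8 at *Lor* and from 13 to 10 at *Ivl*. *Krt1*, a suprabasal keratin, and *Casp14*, a caspase of cornification, each had 3 gained and 1 lost, and filaggrin (*Flg*) 2 and none. The 3 lost domains at *Lor* had folds of 2.74 to 4.56 and overlapped skin H3K4me1 at D0.

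HFSC genes had more gained than lost domains at 13 of 23 members (56.5%, against 42.7% of all genes) and more lost at 5 (21.7%, against 23.8%). Of the 23, 11 had 3 or more gained domains (47.8%, against 20.8% of all genes) and 3 had 3 or more lost (13.0%, against 11.1%). As a share, however, 46 of 270 ΔHMG domains were gained (17.0%; 12.8% to 22.1%), close to the 18.1% of all genes, and 29 of 252 no DOX domains were lost (11.5%; 7.84% to 16.1%), an interval that holds the 13.9% of all genes. *Shh*, the hedgehog ligand, had 4 gained and no lost domain on a base of 2 domains without DOX, and by midpoint 2 of the 4 gains lay in its own exons, chr5:28466639-28466983 in the first and chr5:28458465-28458705 in the last, beside non-coding genes of the other strand. Above the median score *Shh* had no changed domain left. *Lhx2* had 3 gained and none lost, *Cd34* 4 and 1, and *Tcf7l2* 3 and 1, while *Ptch1*, the hedgehog receptor, and *Tbx1* each had 2 lost and none gained. *Runx1* had 3 gained and 3 lost among 20 and 20, and the gained domains, with folds of 3.58 to 4.07, did not overlap skin H3K4me1 at D0.

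The SOX family itself had the highest gained share of the 10 groups, with 37 of 156 ΔHMG domains (23.7%; 17.3% to 31.2%) gained and 16 of 133 no DOX domains (12%; 7.04% to 18.8%) lost. Both intervals hold the values of all genes, 18.1% and 13.9%. More gained than lost domains were counted at 10 of 15 members (66.7%, against 42.7% of all genes). Of the 15, 8 had 3 or more gains (53.3%, against 20.8% of all genes). *Sox8*, of the same SOX subgroup as *Sox9*, had 6 gained and 2 lost domains and *Sox10*, the factor of neural crest and melanocytes, 4 and 1. All 6 gains counted at *Sox8* lay nearest to start sites of other genes. *Sox17* and *Sox12* each had 3 gained and none lost. Most of these genes are better known from other tissues, and the 6 gains at *Sox8* had folds of 2.66 to 3.52, below the median of shared ΔHMG domains. Above the median score *Sox8*, *Sox10* and *Sox17* each had no changed domain left.

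*Sox9* had 3 gained and 2 lost domains. The domain over the gene ended at chr11:112785511 without DOX and at chr11:112785509 with ΔHMG-SOX9, beside the last base of the stop codon at 112785510, and at 112785487 with WT and 112785767 with ΔTA-SOX9. Reads of the integrated construct and of the endogenous gene cannot be told apart there. With ΔHMG-SOX9 a further domain, chr11:112786992-112787242, lay in the last exon.

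NOTCH and EGFR pathway genes, which govern epidermal differentiation and growth, had a low gained share. Of 239 ΔHMG domains, 25 were gained (10.5%; 6.88% to 15.1%), below the 18.1% of all genes, and of 249 no DOX domains 38 were lost (15.3%; 11% to 20.3%), near the 13.9% of all genes. More lost than gained domains were counted at 9 of 18 members (50%, against 23.8% of all genes) and more gained at 5 (27.8%, against 42.7%). Of the 18, 7 had 3 or more losses (38.9%, against 11.1% of all genes). These member counts do not allow for the number of domains near each gene. Among receptors, *Erbb2* had 4 lost and no gained domain (20 to 16 in total), *Notch3* 3 and none (14 to 11) and *Egfr* 2 and none (16 to 14), while *Notch1* had 2 of each, *Notch2* 2 lost and 3 gained (16 to 20) and *Erbb3* 1 lost and 3 gained (16 to 18). The lost domains counted at *Erbb2* and *Notch3* all lay nearest to start sites of other genes. Above the median score *Erbb2*, *Notch3* and *Egfr* had no changed domain left. The ligand *Jag1* had 2 lost and none gained, the NOTCH target *Hes1* 3 and none (17 to 13) and *Errfi1*, an inhibitor of EGFR, 4 and 1. *Heyl* and *Hey1*, also NOTCH targets, each had 2 more gained than lost.

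AP1 genes also had a low gained share, with 17 of 176 ΔHMG domains gained (9.66%; 5.73% to 15.0%) against 18.1% of all genes, while 25 of 181 no DOX domains were lost (13.8%), against 13.9%. More lost than gained domains were counted at 9 of 14 (64.3%, against 23.8% of all genes), again without allowing for the number of domains near each gene. *Atf3* had 2 lost and none gained, *Maff* 3 and 1, and *Batf3* 1 and 4. Most of these differences are of 1 or 2 domains.

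Genes of MLL3/4, p300 and SWI/SNF, the machinery that writes and opens enhancers, had 35 of 224 ΔHMG domains gained (15.6%; 11.1% to 21.1%). Of their 213 no DOX domains, 22 were lost (10.3%; 6.59% to 15.2%). Both intervals hold the values of all genes, 18.1% and 13.9%. More gained than lost domains were counted at 11 of 21 members (52.4%, against 42.7% of all genes). *Smarca4* (the BRG1 ATPase) and *Smarcb1* had 3 gained and none lost each, and *Kmt2c* (MLL3) and *Kdm6a* (UTX) 2 and none. Genes of epithelial-mesenchymal transition (EMT) had 31 of 184 gained (16.8%; 11.7% to 23.1%) and 22 of 173 lost (12.7%; 8.14% to 18.6%). These intervals also hold the values of all genes. No difference was seen at 11 of 18 members, against 7359 of all 21938 genes. *Cdh2* and the receptor *Tgfbr2* (5 gained, 1 lost) stood apart, and the matrix protein *Sparc* had 3 lost and none gained. *Vim* (vimentin), *Snai2* and *Twist1* had no changed domain. Stress and wound genes had 12.5% in both directions, 40 of 320 gained (9.08% to 16.6%) and 39 of 313 lost (9.01% to 16.6%). The first interval lies below the 18.1% of all genes and the second holds their 13.9%. Of 30 members 12 had more gained and 11 more lost (40% and 36.7%, against 42.7% and 23.8% of all genes). *Ccl20*, a chemokine, had 5 lost and 2 gained domains, and *Cxcl1* and *Cxcl2* 2 gained and none lost each.

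**Figure D5:**
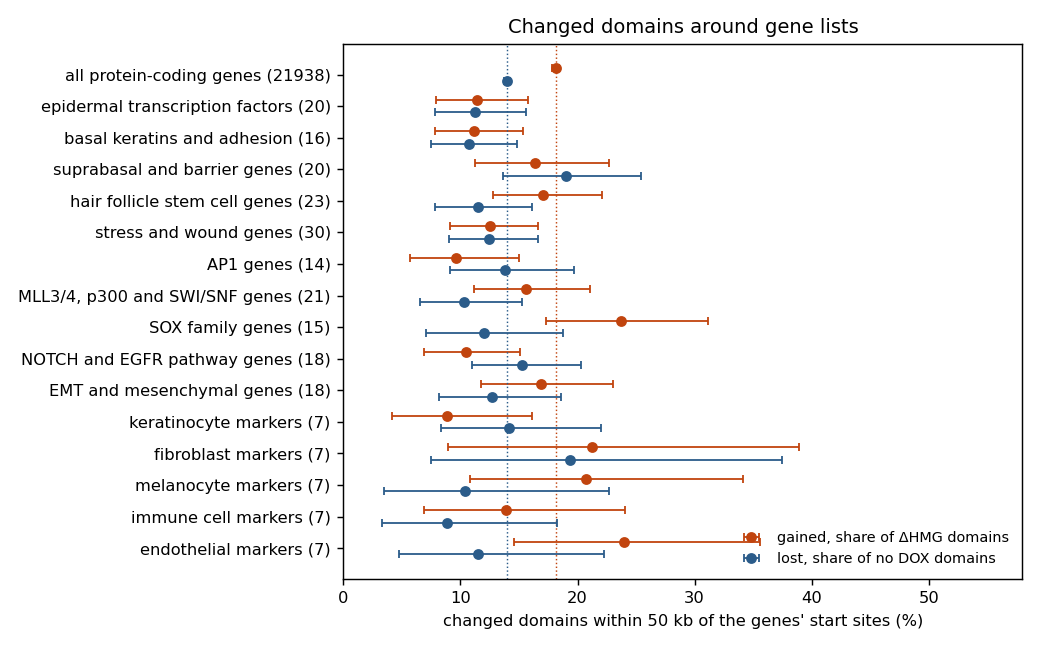
Share of domains within 50 kb of start sites that were gained (of ΔHMG domains) or lost (of no DOX domains), in percent on the x axis, for 10 gene groups and 5 marker lists (number of genes in brackets), with exact 95% intervals of counting and dotted lines at the values of all protein-coding genes (18.1% and 13.9%). SOX genes have the highest gained share of the 10 groups (23.7%), suprabasal genes the highest lost share (19%).

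Marker genes were used to check the cell type. Within 10 kb of the gene, H3K4me1 covered a median of 20.6% of the sequence of 7 keratinocyte markers without DOX (range 14.6% to 42.3%) and 21.4% with ΔHMG-SOX9. The medians were 4.82% and 3.21% for fibroblast, 0.990% and 1.08% for melanocyte, 6.70% and 9.65% for immune and 2.84% and 6.30% for endothelial markers. *Lum*, *Tyr* and *Tyrp1* had no domain in either list, and *Tek* had none with ΔHMG-SOX9. Without DOX, 4 of the other markers lay within the keratinocyte range, *Cd68* (41.3%), *Egfl7* (19.1%), *Pecam1* (16.6%) and *Csf1r* (16.0%), and with ΔHMG-SOX9 they had 33.8%, 22.2%, 12% and 17.5%. Domains around the 7 endothelial markers were gained in 17 of 71 cases (23.9%; 14.6% to 35.5%), an interval that holds the 18.1% of all genes, and lost in 7 of 61 (11.5%). The tight junction gene *Cldn5* had 6 gained and 1 lost, the VEGF receptor *Kdr* 4 and 1, *Pecam1* 2 and 3 and *Emcn* none and 1. Around keratinocyte markers, 9 of 102 ΔHMG domains were gained (8.82%) and 16 of 113 no DOX domains were lost (14.2%), with 4 losses and no gain at the desmosomal *Dsp*. H3K4me1 marks genes that are primed as well as active, and these lists do not measure expression or cell numbers.

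The strongest and the widest changed domains were mostly remote from the groups above. Among the 5 gained domains of highest fold were chr2:22706456-22706799 (9.79), chr10:15826248-15826528 (9.74), chr6:66786270-66786614 (9.09) and that at *Cdh2*. These 4 were 281 to 345 bp wide, none overlapped skin H3K4me1 at D0, the WT list overlapped none and the ΔTA list all 4. The 3 comparisons with DOX share the no DOX list. The lost domains of highest fold, after that on chromosome 7, were chr4:93925653-93925938 (8.73), chr12:55082749-55083011 (8.30), in an intron, chr16:77500782-77501079 (8.22), in an intron of the non-coding *Mir99ahg*, and chr18:88861682-88861920 (7.87). The WT and ΔTA lists both overlapped the lost domains on chromosomes 7 and 12. Only the WT list overlapped that on chromosome 16, only the ΔTA list that on chromosome 18, and neither that on chromosome 4.

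Wide changed domains were few and some covered start sites. The widest gained was chr18:68146293-68149769 (3477 bp, fold 3.52), followed by chr3:93504760-93508058. Those at *Gp9*, chr6:87777861-87781157, and *Clip4*, chr17:71768648-71771902, lay over a start site, with folds of 3.42 and 3.38. The widest lost was chr15:55145582-55148958 in an intron of *Deptor*, an inhibitor of mTOR, at 3377 bp and a fold of 2.78. Lost domains over start sites were those at *Siah1b* (chrX:164074246-164077367, 3.29), *Ppp1r36* (chr12:76416814-76419802, 3.57) and *Zfp867* (chr11:59469776-59472756, 3.75).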

How the data were processed

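MINT-ChIP of H3K4me1 in cultured EpdSCs was used, with 4 region lists from sorted skin cells. According to the study's methods and the processing notes, the authors split reads by barcode, aligned them to mm10 (GRCm38) with Bowtie2 2.2.9, took out duplicates (Picard) and merged replicates (SAMtools 1.9). Broad H3K4me1 domains are described as called with epic2, but the deposited culture lists have the layout of MACS2 broad peaks, so the caller of these lists is unclear. Per domain the authors deposited a whole-number score, a fold enrichment (linear ratio) and the −log10 of p and q; the largest q was 0.0982 without DOX and 0.0970 with ΔHMG-SOX9. The deposited skin H3K4me1 lists give a p-value per domain, used here only for position. Conditions were read from the list names.

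Intervals on 21 chromosomes were compared in Python 3.11.15 with numpy 2.4.6 and pandas 2.3.3. Start sites came from the basic set of GENCODE M21, sequence from the GRCm38 reference. Functions were tested on simulated lists. Exact 95% Clopper-Pearson intervals used scipy 1.17.1. No p-value was computed, since each condition is 1 pooled list.

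Members, gene lists and comparisons were chosen with earlier results of these data known. Named genes were the 10 with most gained and the 10 with most lost domains, ties ordered by summed fold, up to 4 members per gene list by difference, and *Trp63*, *Gata3*, *Klf4*, *Krt5*, *Krt14*, *Runx1*, *Vim* and *Sox9*. Named domains were the 5 of highest fold and the 5 widest each way. A few of these genes and domains are not reported here. Further genes in 1 Mb stretches, other values of listed genes and 6 motifs were chosen after values had been seen.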

Additional observations from a re-analysis of the deposited data

How the results depend on the processing

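No paired analysis was possible because each condition is a single pooled list. The excess of gained domains was the result that turned: with the lists cut to equal length, lost domains numbered 1.02 for each gained domain, against 0.769. The ratio was 0.788 with an overlap of 50% of the shorter interval, 0.629 above the median score and 0.715 at q of 0.01 or less. Above the median score 3513 domains were gained and 2211 lost, and at q of 0.01 or less 15500 and 11086. Both of these settings restricted the domains counted and matched them against the whole other list. The equal-length setting matched the cut lists with each other, as did the Jaccard index under each of these filters. The Jaccard index was 0.580 with the 50% overlap, 0.524 above the median score, 0.589 at q of 0.01 or less, 0.588 at equal length, 0.588 with domains joined and 0.588 without X and Y. The distal share of gained domains was 92.1% beyond 1000 bp and 57.9% beyond 10000 bp, 83.7% with the 50% overlap, 86.5% above the median score and 85.4% with no domain of the other list within 1000 bp. That of lost domains was 87.8% and 56.2% at the 2 limits, 79.8% with the 50% overlap, 78.9% above the median score, 79.8% at q of 0.01 or less and 79.8% at equal length. Genes with 2 or more changed domains numbered 9119 gained and 6091 lost, with 4 or more 1939 and 913, with 3 or more within 10 kb 138 and 104, above the median score 40 and 14, and at q of 0.01 or less 2140 and 980. With windows of the whole gene plus 50 kb either side, 3974 genes had 3 or more losses. Smaller windows and stricter domain sets hold fewer domains by construction, and the cause of the other shifts was not tested.

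For 46 named genes under 7 alternatives, 2 of 322 differences changed sign, *Foxp1* above the median score (2 more gained than lost) and *Tcf4* at equal length (gained minus lost -1). Of the 42 genes with a difference, 18 fell to 0 above the median score, 4 at q of 0.01 or less and 2 at equal length, among them *Pik3r1*, *Shh*, *Sox8* and *Erbb2*. Of 105 values for gene lists 8 changed sides: gained domains were 49.3% and 44.3% of changed domains at epidermal factors with the 50% overlap and at equal length, 49.4%, 42.9% and 44.6% at basal genes with the 50% overlap, above the median score and at equal length, 33.3% and 39.8% at stress genes above the median score and at equal length, and 0% at fibroblast markers above the median score. In these values for gene lists a domain near several genes of a list counts once for each gene, unlike in the group shares above. The difference in D0 skin overlap between lost and gained domains stayed positive (13.7 to 24.2 percentage points) and that in AP1 matches negative (-5.42 to -1.30) under all alternatives run, which for AP1 left out joining of domains. The unknown depth limits what a domain missing from a list shows, as do the weak scores of most changed domains.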
